A study of Mus musculus with 6 samples.

Results

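Brca1, Bard1, Brca2, Rad51ap1, Rad54l, Blm, Exo1, Fancd2 and Fanci encode proteins of homologous recombination and of the Fanconi anemia pathway. They were matched by name, and all 9 were among the 21397 genes of the expression table. RNA was sequenced from small intestinal organoids grown from ileal crypts of Fpr2f/f mice, in 3 libraries treated for 5 days with MMK-1, a synthetic peptide agonist of formyl peptide receptor 2 (FPR2), and in 3 libraries given its vehicle, 0.1% DMSO. MMK-1 was used at 1 μmol/L according to the protocol text, whereas the treatment label states 1 mmol/L. Both groups carry floxed Fpr2 alleles, and no Cre is named for these samples, so no sample lacks the receptor by design. Each sample combined organoids of several mice. The labels do not tie mice to libraries, and p-values therefore measure only the spread between these libraries.

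Homologous recombination repairs a broken chromosome by copying the sister chromatid, and it works mainly while DNA is being replicated and afterwards. Broken ends are first trimmed to single strands, a protein filament is built on them with the help of BRCA2, and the filament invades the intact copy. The Fanconi pathway detects crosslinks between the DNA strands and hands the resulting breaks to recombination. In the small intestine the dividing cells are the stem cells and the transit-amplifying cells of the crypt, whereas the enterocytes of the villus no longer divide.

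The libraries held between 35512739 and 37537463 fragments. Epithelial Epcam was at 392 FPKM in the controls and 391 FPKM under MMK-1 (FPKM, fragments scaled to the length of the gene and the size of the library), and the leukocyte marker Ptprc was at 0.0076 and 0.0031 FPKM. Epcam was the single flat gene of 8 pan-epithelial markers, of which 4 rose and 3 (Vil1, Krt8 and Krt19) fell, and their sum was 3444 to 3475 FPKM in the controls and 2505 to 2709 FPKM under MMK-1. The 8 listed immune markers summed to 5.65 to 6.67 FPKM in the controls and to 1.80 to 3.28 FPKM under MMK-1, and the 10 listed stromal and endothelial markers to 5.87 to 6.45 and 3.76 to 5.46 FPKM. MMK-1 replicate 3 stood apart from the other MMK-1 libraries, where the chi-square of the fragments over genes, divided by its degrees of freedom, was 34.4 and 29.4 against them and 2.77 to 4.78 for the other pairs within a group. In limma-trend on log2(FPKM + 1), the median change of the 10551 genes tested was 0.13, and 48.5% of them rose and 24.7% fell under MMK-1 (adjusted p not above 0.05). This excess of rising genes depended on the scaling between libraries, since 5118 rose and 2606 fell as deposited, and 3792 rose and 3828 fell under median ratio scaling.

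All 9 genes were expressed at a low level and stood higher with MMK-1. Their group means lay between 0.602 and 3.14 FPKM in the controls and between 1.24 and 5.28 FPKM under MMK-1, whereas the median gene tested had a mean of 9.81 FPKM. Summed over the 9 genes, the controls held 12.9, 13.1 and 13.7 FPKM and the MMK-1 libraries 24.5, 25.2 and 26.0 FPKM. The sum therefore did not overlap between the groups. For each of the 9 genes every MMK-1 library was also above every control library, as was the case for 49.9% of all genes averaging 0.5 FPKM or more. The 8 genes that averaged 1 FPKM or more all rose in limma at the same adjusted threshold, against the 48.5% of all genes given above. Bard1 lay under that minimum and is given from fits with a minimum of 0.5, in which 47.7% of all genes rose. In RNA from whole organoids, a larger share of dividing cells and more RNA per cell cannot be told apart.

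**Figure D1:**
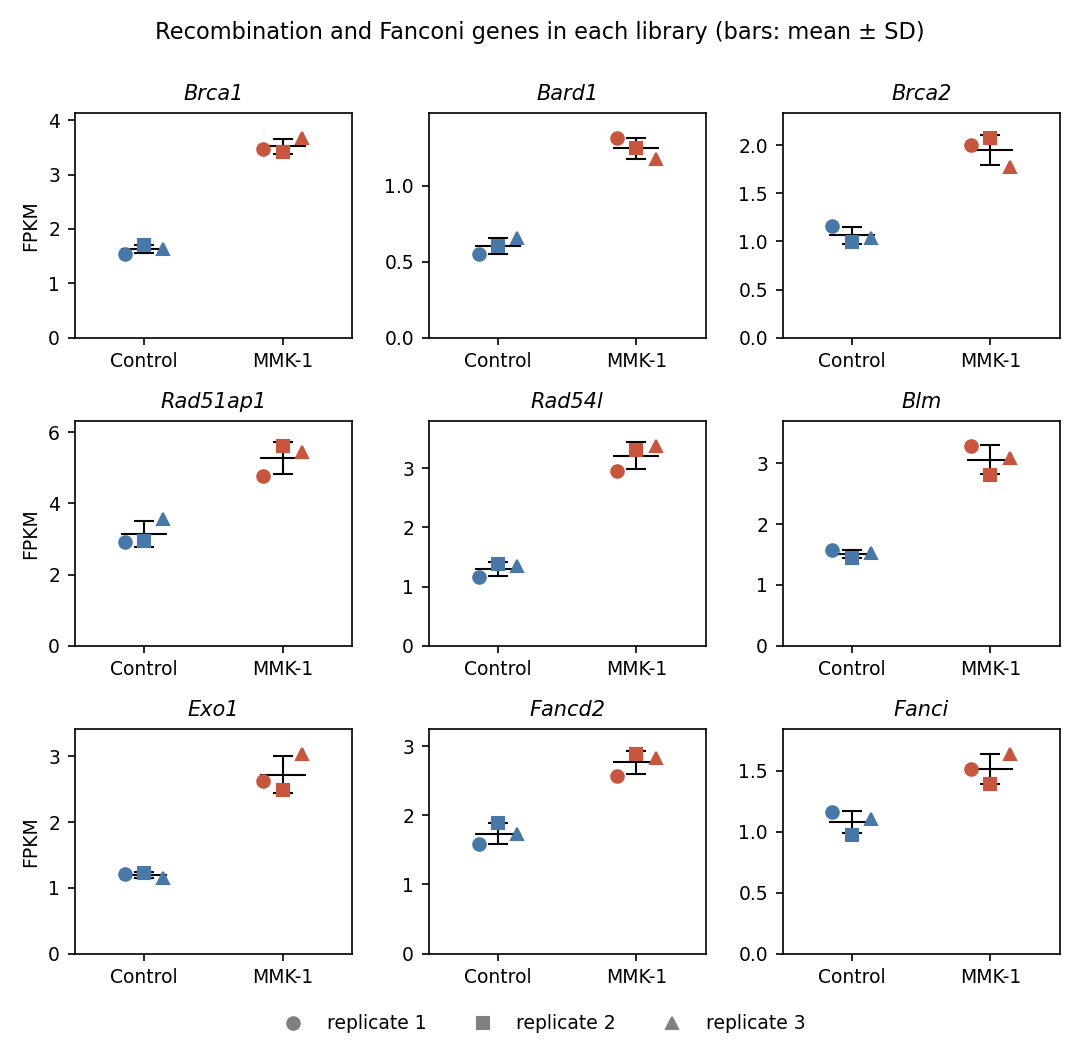
FPKM (vertical axes, each from 0) of the 9 genes in the 3 control and 3 MMK-1 libraries, with 1 point per library, the marker shape giving the replicate, and the mean ± SD in black. In every panel the 3 MMK-1 points lie above the 3 control points, and Fanci shows the narrowest gap relative to its level.

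The DNA around annotated starts of these genes was read to show which sequence features they share. RefSeq windows on GRCm38.p6, from 250 bases before an annotated start to 50 bases after it, were matched for 7 of the 9 genes and not for Exo1 and Fancd2. They were searched on both strands for E2F sites, which are bound by the transcription factors of the G1 to S phase switch (TTTCCCGC, TTTCGCGC, TTTGCCGC or TTTGGCGC), for the cell cycle homology region (TTTGAA or TTTAAA), and for CCAAT. The full E2F letters were in Bard1 and Brca2, 2 of 7 windows, against 4.16% of the 10891 windows of genes tested. Without the first T of the site, the letters were in 6 of 7 windows, all but that of Rad54l, against 16.9% of the windows of genes tested. These shorter letters are part of the full site, so the counts overlap. The 6 matches are printed in capitals with 10 bases on each side, 5′ to 3′ on the strand of the gene, since they are the feature that most of the windows had in common.
Bard1 (chr1:71103164-71103191, minus strand, 209 bases before the start): cgccgctcagTTTCCCGCtcaggaagtt
Brca2 (chr5:150522443-150522470, plus strand, 168 bases before the start): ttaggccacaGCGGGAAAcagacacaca
Blm (chr7:80535124-80535150, minus strand, 142 bases before the start): atcatccttcTTGCCGCgcagagcgtg
Rad51ap1 (chr6:126939559-126939585, minus strand, 12 bases after the start): ctggttttcgGCGGGAAttgaaaccgc
Fanci (chr7:79392346-79392372, plus strand, 18 bases after the start): gtggagtagaGCGGGAAttttggaagg
Brca1 (chr11:101551918-101551944, minus strand, 21 bases after the start): ctagcgctagGCGCCAAgcggccggtt

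The core GCGGGAA, read on the strand of the gene, was shared by Brca2, Rad51ap1 and Fanci, and Bard1 carried the same letters on the other strand. The annotated starts of the Bard1, Brca2 and Blm windows lie 169, 324 and 150 bases inside the outermost start of the gene, so these windows describe 1 of several starts. The Brca2 and Blm matches therefore lie inside the outermost bounds of their genes, and the Bard1 match lies upstream of them. CCAAT was in 4 of 7 windows (Brca1, Rad51ap1, Rad54l and Blm), against 38.3% of the windows of genes tested, and the cell cycle homology region was in 1 of 7 (Bard1), against 19.8%. Rad54l, Brca1 and Rad51ap1 had CCAAT and no E2F letters upstream of the start, and their changes were among both the larger and the smaller of the 9. The upstream DNA of Rad54l and Brca1, 240 and 250 bases, is given with CCAAT in capitals, since these genes had the largest changes on the log2(FPKM + 1) scale.
Rad54l (chr4:116123701-116123940, minus strand): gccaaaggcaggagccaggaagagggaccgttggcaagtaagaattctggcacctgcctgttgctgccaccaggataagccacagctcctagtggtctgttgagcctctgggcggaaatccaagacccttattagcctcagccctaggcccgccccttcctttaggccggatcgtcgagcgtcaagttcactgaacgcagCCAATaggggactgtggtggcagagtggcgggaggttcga
Brca1 (chr11:101551956-101552205, minus strand): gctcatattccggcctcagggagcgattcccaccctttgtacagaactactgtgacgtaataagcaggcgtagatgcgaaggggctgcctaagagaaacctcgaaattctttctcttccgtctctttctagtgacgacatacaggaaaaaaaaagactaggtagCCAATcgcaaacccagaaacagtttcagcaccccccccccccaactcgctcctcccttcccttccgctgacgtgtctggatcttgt

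BRCA1 and BARD1 form a ubiquitin ligase that marks chromatin at breaks and favours recombination over end joining. Brca1 (chr11:101488761-101551955) was at 1.55, 1.70 and 1.63 FPKM in the controls and at 3.47, 3.42 and 3.67 FPKM under MMK-1. The lowest MMK-1 library was 2.02 times the highest control, so the groups stood well apart. The means were 1.63 ± 0.077 and 3.52 ± 0.134 FPKM (SD, n = 3 libraries), a ratio of 2.17, and the difference on log2(FPKM + 1) was 0.78 ± 0.06 (SE, limma adjusted p = 3.06e-06). Bard1 (chr1:71027535-71103141) was the lowest of the 9 genes. Its control libraries held 116, 127 and 137 fragments, and the MMK-1 libraries held 262, 252 and 245. These correspond to 0.551, 0.602 and 0.652 FPKM in the controls and 1.31, 1.25 and 1.17 FPKM under MMK-1. Both groups were tight, and MMK-1 replicate 3 was the lowest of its group. Between the means, 0.602 ± 0.051 and 1.24 ± 0.070 FPKM, the ratio was 2.07, and with a minimum mean FPKM of 0.5 the difference on log2(FPKM + 1) was 0.49 ± 0.06 (SE, limma adjusted p = 1.09e-04). The Brca1 to Bard1 ratio was 2.71 in controls and 2.83 with MMK-1, a log2 difference of 0.07 that was within the spread of the libraries (exact permutation p = 0.6, two-sided). With 1 added to each FPKM this log2 difference was 0.30, and leaving out 1 library put it between -0.0075 without MMK-1 replicate 3 and 0.12 without MMK-1 replicate 1.

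BRCA2 builds the filament on single-stranded DNA, RAD51AP1 stimulates strand invasion, and RAD54L is the motor protein that drives the exchange. Brca2 (chr5:150522297-150570147) was at 1.16, 0.992 and 1.04 FPKM in the controls and 2.00, 2.07 and 1.77 FPKM under MMK-1, and replicate 3 was again the lowest MMK-1 library. Its means of 1.06 ± 0.086 and 1.95 ± 0.156 FPKM gave a ratio of 1.84 and a difference on log2(FPKM + 1) of 0.52 ± 0.07 (SE, limma adjusted p = 1.26e-04). The Brca2 difference was 0.32 after a correction for GC content and 0.31 after one for gene length, and stayed called in both. Rad51ap1 (chr6:126923415-126939621) had the highest level of the 9 genes in both groups, at 2.92, 2.94 and 3.56 FPKM in the controls and 4.77, 5.62 and 5.45 FPKM under MMK-1. Control replicate 3 was the high sample among its controls, and the lowest MMK-1 library was still 1.34 times that sample. The ratio of its means, 3.14 ± 0.365 and 5.28 ± 0.448 FPKM, was 1.68, with a difference on log2(FPKM + 1) of 0.60 ± 0.08 (SE, limma adjusted p = 1.44e-04).

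Rad54l (chr4:116094261-116123700) changed most on either scale. It was at 1.16, 1.38 and 1.35 FPKM in the controls and 2.95, 3.31 and 3.38 FPKM under MMK-1, and the lowest MMK-1 library was 2.13 times the highest control. Its means were 1.30 ± 0.117 and 3.21 ± 0.230 FPKM, a ratio of 2.47, with a difference on log2(FPKM + 1) of 0.87 ± 0.07 (SE, limma adjusted p = 5.10e-06). The gene overlaps Lrrc41, which was at 17.7 ± 0.329 and 18.8 ± 0.630 FPKM with a difference of 0.08 on log2(FPKM + 1) (limma adjusted p = 0.116). Whether counting used the strand is not given in the sources used here, so reads of the shared stretch could belong to either gene.

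BLM and EXO1 act on the DNA itself. BLM is a helicase that helps to trim broken ends and later, with TOP3A, takes joined molecules apart, and EXO1 is a nuclease that degrades the end and also serves mismatch repair. Blm (chr7:80454993-80535148) was at 1.57, 1.44 and 1.53 FPKM in the controls and 3.29, 2.81 and 3.09 FPKM under MMK-1. The controls were close together, and the MMK-1 libraries were more spread. Its means of 1.51 ± 0.066 and 3.06 ± 0.243 FPKM gave a ratio of 2.02 and a difference on log2(FPKM + 1) of 0.69 ± 0.06 (SE, limma adjusted p = 1.46e-05). The pseudogene Ndufab1-ps lies within Blm and was at 8.82 and 9.45 FPKM (limma adjusted p = 0.312). Exo1 (chr1:175880768-175911396) was at 1.21, 1.23 and 1.15 FPKM in the controls and 2.62, 2.49 and 3.03 FPKM under MMK-1, where replicate 3 was the highest library. Its means of 1.20 ± 0.044 and 2.72 ± 0.282 FPKM gave a ratio of 2.27 and a difference on log2(FPKM + 1) of 0.76 ± 0.07 (SE, limma adjusted p = 1.37e-05).

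FANCD2 and FANCI form the clamp that is ubiquitinated at stalled forks and crosslinks. Both changed less than most of the other genes. Fancd2 (chr6:113531640-113597020) was at 1.58, 1.89 and 1.73 FPKM in the controls and 2.57, 2.89 and 2.83 FPKM under MMK-1. The means were 1.73 ± 0.152 and 2.76 ± 0.166 FPKM, a ratio of 1.59, with a difference on log2(FPKM + 1) of 0.46 ± 0.06 (SE, limma adjusted p = 2.19e-04). After a correction for gene length it was 0.28 and stayed called. Fanci (chr7:79392312-79450266) was at 1.16, 0.976 and 1.11 FPKM in the controls and 1.52, 1.39 and 1.64 FPKM under MMK-1, so the lowest MMK-1 library exceeded the highest control by 1.20 times. The ratio of its means, 1.08 ± 0.094 and 1.52 ± 0.124 FPKM, was 1.40, and the difference on log2(FPKM + 1) was 0.27 ± 0.07 (SE, limma adjusted p = 0.00523). With the same correction the Fanci difference was 0.10 and was no longer called (limma adjusted p = 0.212), in a fit where 37.2% of all genes rose. Fanci overlaps Polg, which was at 6.02 ± 0.077 and 7.59 ± 0.437 FPKM (limma adjusted p = 8.87e-04). The Fancd2 to Fanci ratio was 1.61 in controls and 1.83 with MMK-1, a difference within the spread of the libraries (exact permutation p = 0.4, two-sided). Its log2 difference of 0.18 lay between 0.067 without control replicate 1 and 0.32 without control replicate 2.

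The size of these changes depended on the scale, since adding 1 to FPKM compresses genes at this level. On log2(FPKM + 1), the median change of the 8 genes tested was 0.65, and none of the 8 passed the rule of a 2-fold change and an unadjusted p within 0.05, which 3.39% of all genes passed upwards and 3.65% downwards. By the plain ratio of mean FPKM, 4 of the 8 reached 2-fold (Rad54l, Exo1, Brca1 and Blm), against 7% of all genes. In limma-voom on the whole fragments behind the FPKM values, with the minimum of 0.5 FPKM, all 9 rose past the adjusted threshold against 47.9% of all genes, and 5 of 9 were at least 2-fold, Bard1 being the fifth, against 7.92% of all genes. The median log2 change by limma-voom was 1.01 for the 9 genes and 0.16 for all genes. Median ratio scaling, which multiplies all genes of a library alike, lowered the median log2(FPKM + 1) change of all genes to 0.0061 and that of the 8 genes to 0.54. A single gene of 3 libraries against 3 cannot pass an exact permutation test below p = 0.1, and each of the 9 genes was at that smallest value. Any gene whose groups do not overlap takes this value, and 49.9% of genes averaging 0.5 FPKM or more had every MMK-1 library above every control.

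**Figure D2:**
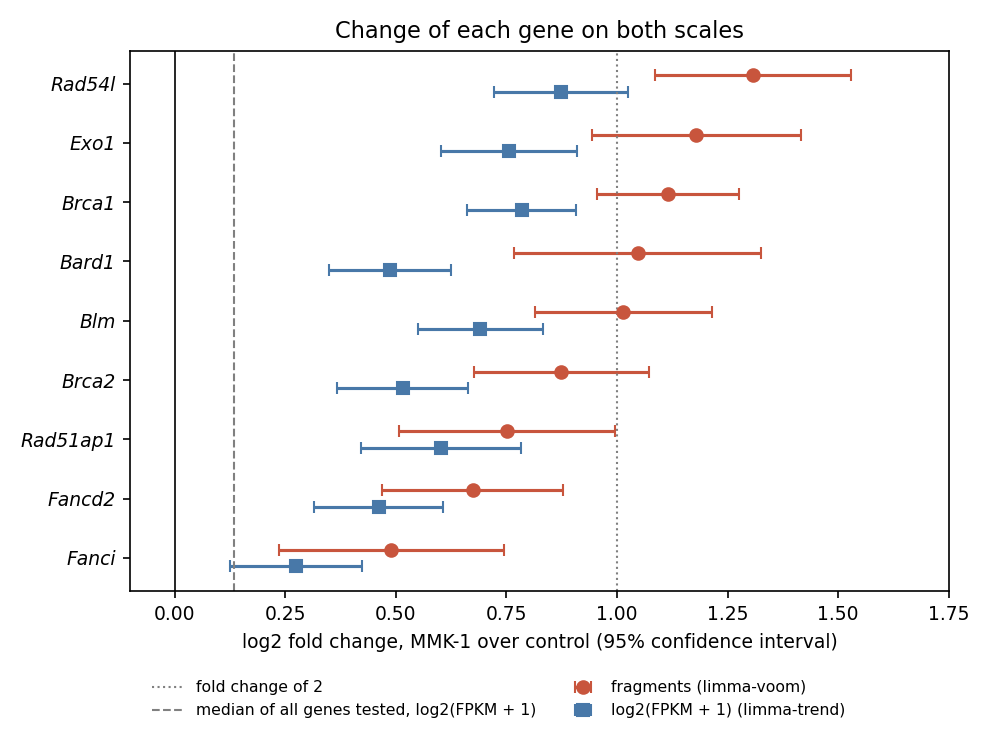
Log2 fold change of MMK-1 over control (horizontal axis) with 95% confidence intervals for each gene, on log2(FPKM + 1) by limma-trend (squares) and on whole fragments by limma-voom (circles), both over genes averaging 0.5 FPKM or more. Every interval lies above 0, the dotted line marks a 2-fold change, and the dashed line marks the median of all genes tested on log2(FPKM + 1), 0.13.

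Within the 9 genes the limma-voom changes ran from 1.31 (95% interval 1.09 to 1.53) for Rad54l to 0.49 (0.24 to 0.75) for Fanci. Of the 36 pairs of genes, 10 had intervals that did not overlap. Rad54l lay above Brca2, Rad51ap1, Fancd2 and Fanci, and Exo1 and Brca1 lay above Fancd2 and Fanci. Bard1 and Blm lay above Fanci. Rad54l, Exo1, Brca1, Bard1 and Blm could not be separated from each other by their intervals, nor could Fancd2 and Fanci. The spread between replicates was 3.68% to 11.6% of the mean for each gene and group, while counting error alone, with 116 to 955 fragments a library, gives 3.35% to 8.89%. Levels also had an order. In controls Rad51ap1 led, followed by Fancd2, Brca1, Blm, Rad54l, Exo1, Fanci, Brca2 and Bard1, and only Rad51ap1 with Fancd2, Blm with Rad54l and Brca2 with Bard1 were neighbours whose libraries did not overlap. With MMK-1 the order was Rad51ap1, Brca1, Rad54l, Blm, Fancd2, Exo1, Brca2, Fanci and Bard1, and the libraries of neighbours overlapped from Rad54l to Exo1 and nowhere else.

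The 9 genes were also set against genes that mark dividing cells, within each library. Mki67, a marker of cycling cells, was at 13.9 ± 0.405 FPKM in the controls and 27.6 ± 0.673 FPKM under MMK-1, and 31 proliferation genes summed to 428 to 433 FPKM in the controls and 736 to 773 FPKM under MMK-1. Of these 31 genes, 30 rose, and the largest changes were in the cyclins Ccne2 (2.01 to 7.19 FPKM) and Ccna2 (23.7 to 49.4 FPKM). Nearly all proliferation genes therefore moved in the same direction as the 9 recombination and Fanconi genes. Relative to Mki67, 4.21% of 11379 genes were higher and 86% lower without overlap between the groups. Of the 9 genes, 3 were higher with MMK-1 in libraries that did not overlap with the controls, Rad54l by a log2 ratio of 0.32, Exo1 by 0.19 and Brca1 by 0.12. Another 3 were lower without overlap, with differences of -0.50 for Fanci, -0.32 for Fancd2 and -0.24 for Rad51ap1. The margin between the log2 ratios was narrow for Brca1 (highest control -3.016, lowest MMK-1 library -3.014) and Exo1 (-3.480 and -3.472). It was also narrow for Rad51ap1 (lowest control -2.294, highest MMK-1 library -2.300). Brca2, Bard1 and Blm overlapped between the groups, and leaving out 1 library put their differences between -0.16 and -0.032 for Brca2, -0.026 and 0.14 for Bard1, and -0.048 and 0.088 for Blm. Single libraries also weighed on some of the others, as Brca1 was at 0.065 without control replicate 1, Exo1 at 0.12 without MMK-1 replicate 3 and Rad51ap1 at -0.13 without control replicate 3. With 1 added to each FPKM, the ratios to Mki67 of Rad54l (-0.069), Exo1 (-0.19) and Brca1 (-0.16) turned lower.

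Against the summed proliferation genes, of which Pcna made up 21.1%, 6.91% of all genes were higher and 80.4% lower without overlap. Of the 9 genes, 5 were higher without overlap, namely Rad54l (0.50), Exo1 (0.37), Brca1 (0.31), Bard1 (0.25) and Blm (0.21). For Bard1 the groups nearly touched, with log2 ratios of -9.3635 in the highest control and -9.3631 in the lowest MMK-1 library. Fanci was lower (-0.32), and Brca2, Rad51ap1 and Fancd2 overlapped. With 1 added to each FPKM, Exo1 (-0.047), Brca1 (-0.020), Bard1 (-0.32) and Blm (-0.11) turned lower and Rad54l was at 0.069, while Fanci stayed lower against either reference. In all, 25 ratios were compared, including those to partner genes, and none passed correction, the smallest exact permutation p being 0.1 and the smallest adjusted value 0.156. Intestinal stem cell markers rose in 10 of 10 genes tested, with a median log2(FPKM + 1) change of 1.61, and enterocyte markers fell in 13 of 15, with a median of -1.52. Paneth cell markers rose in 6 of 7, with a median of 1.70. Goblet cell markers rose in 6 of 8 and fell in 2, with a median of 0.25. Enteroendocrine cell markers rose in 6 of 8, with a median of 0.47. Among all genes tested, 48.5% rose and 24.7% fell. The part of these marker shifts in the change of the 9 genes was not tested.

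**Figure D3:**
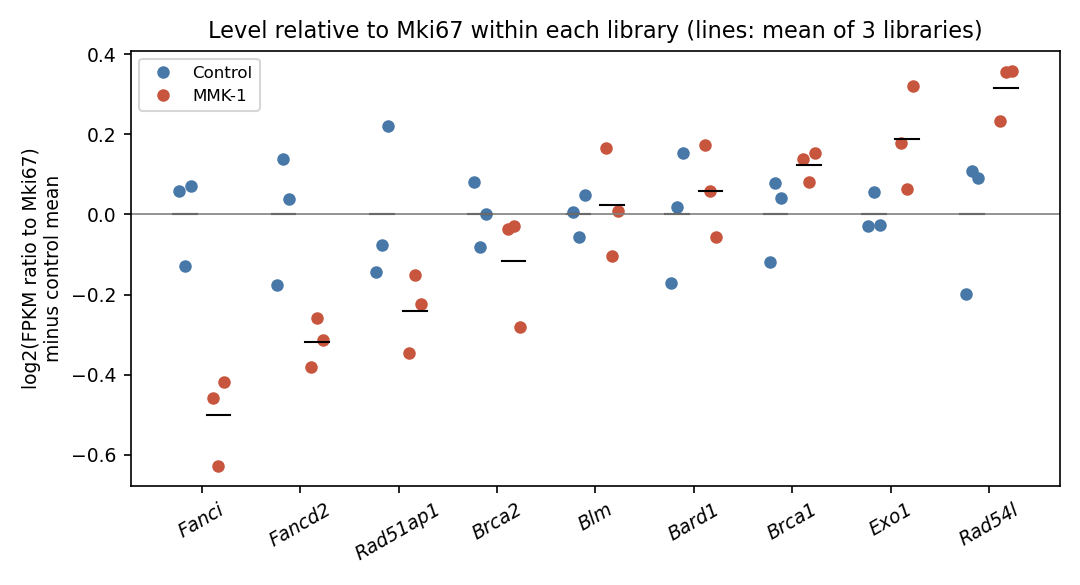
Log2 of the FPKM ratio of each gene to Mki67 in each library, minus the mean of the controls (vertical axis), with 1 point per library and lines at the mean of 3 libraries. The MMK-1 libraries lie below the controls for Fanci, Fancd2 and Rad51ap1 and above them for Brca1, Exo1 and Rad54l (lower with 1 added to each FPKM), and the other 3 genes overlap. The separation is narrow for Rad51ap1, Brca1 and Exo1.

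Several of the 9 genes were also set against a partner gene within each library. Palb2, which joins BRCA1 to BRCA2, was at 0.906, 0.998 and 0.854 FPKM in the controls and 2.45, 2.54 and 2.40 FPKM under MMK-1, so that the Brca2 to Palb2 ratio went from 1.16 to 0.790 without overlap. Blm was higher relative to Top3a, with a ratio of 1.05 and 1.36, and Exo1 relative to Dna2, a second resection nuclease, with 0.255 and 0.339. With 1 added to each FPKM the log2 difference of Exo1 to Dna2 went from 0.41 to 0.097, and that of Brca2 to Palb2 from -0.55 to -0.34. Each of these 3 differences without overlap had an exact permutation p of 0.1, the smallest possible.

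In the wider recombination and Fanconi machinery, 75 further genes were listed and 68 of them were tested. Of these, 41 rose, 4 fell and 23 did not pass, with a median log2(FPKM + 1) change of 0.28, against 48.5% and 24.7% of all genes rising and falling and a median of 0.13. Under median ratio scaling 33 rose and 13 fell. Among the 16 other tested genes of the Fanconi core complex and ubiquitin cycle 13 rose, including Usp1, which removes ubiquitin from FANCD2 (14.1, 14.2 and 13.4 FPKM in controls; 36.7, 35.6 and 26.5 FPKM under MMK-1). Its change of 1.17 was the only one of the 68 past 2-fold on the log2(FPKM + 1) scale, and replicate 3 was the lowest of its MMK-1 libraries. Fanca of the core complex (1.70 to 3.97 FPKM) and the ubiquitin-conjugating enzyme Ube2t (4.58 to 8.64 FPKM) also rose, and Cenpx, a core complex partner and centromere protein, fell (16.2 to 13.6 FPKM). Of 6 other resection genes 5 rose, among them Dna2 (4.69 to 7.99 FPKM), and the helicase Wrn did not pass.

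Of 16 other filament loading and accessory factors 8 rose, led by Fignl1 (2.79 to 6.33 FPKM), Hrob (1.68 to 4.11 FPKM) and Palb2, while 7 did not pass, among them Rad51d and Xrcc3, and Zswim7 fell (14.5 to 8.97 FPKM). Of 7 other strand exchange and anti-recombinase genes 3 rose, including Parpbp, an inhibitor of recombination (1.70 to 3.67 FPKM), and the helicase Recql4 (1.70 to 2.69 FPKM). The resolvase genes Eme1 (1.87 to 3.09 FPKM) and Gen1 (1.36 to 2.34 FPKM) were among 5 of 8 other junction genes that rose. Of 8 other genes of BRCA1 complexes 3 rose, among them the helicase Brip1 (1.10 to 1.60 FPKM), 4 did not pass, namely Abraxas1, Uimc1, Babam1 and Brcc3 of the complex that recognises ubiquitin chains, and Babam2 of that complex fell (33.0 to 28.8 FPKM). Crosslink unhooking and bypass genes rose in 6 of 10, led by Rev3l, the catalytic subunit of a translesion polymerase (3.01 to 4.64 FPKM), and the nuclease gene Ercc4 fell (3.34 to 2.91 FPKM).

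**Figure D4:**
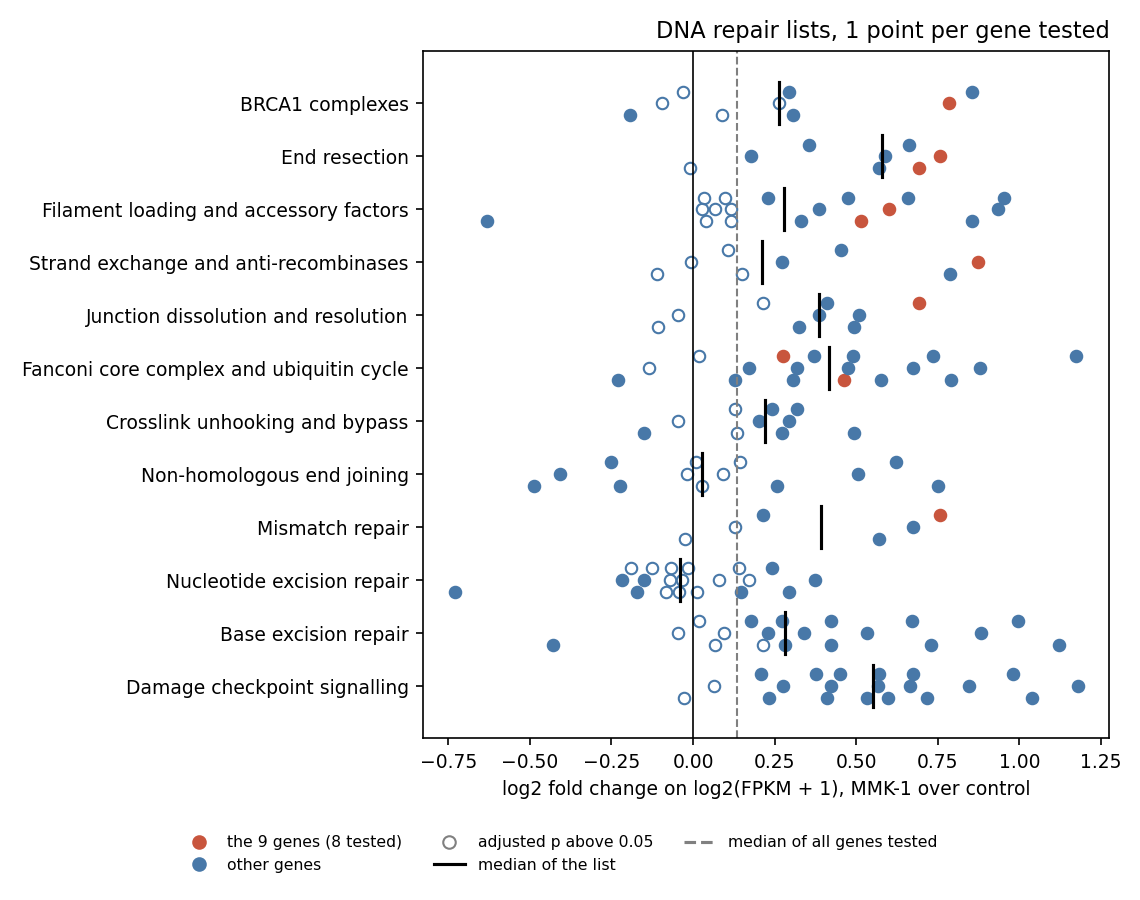
Log2(FPKM + 1) fold change of MMK-1 over control (horizontal axis) for every gene tested in 12 DNA repair lists, with the recombination and Fanconi genes described here in red, other genes in blue, open circles for an adjusted p above 0.05 and a black bar at the median of each list. The red points lie at or to the right of the list medians except in the Fanconi list, where Fanci is to the left of the median, and the lists of non-homologous end joining and nucleotide excision repair are centred near 0.

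Other repair pathways gave a mixed picture. Of 77 tested genes in these lists, Exo1 aside, 42 rose and 9 fell, and under median ratio scaling 33 rose and 19 fell. The lists overlap in part with those above, as Ercc4 counts both here and among the crosslink genes. Among all 10551 genes tested, 48.5% rose and 24.7% fell, or 3792 and 3828 genes under that scaling. Non-homologous end joining, which rejoins ends without a template, had 4 genes up and 4 down of 13, with a median log2(FPKM + 1) change of 0.027. Rif1, which protects ends from trimming, rose (1.95 to 3.99 FPKM), and the end-joining factors Xrcc4 (3.87 to 2.47 FPKM) and Paxx (4.13 to 2.87 FPKM) fell. Nucleotide excision repair likewise had 4 up and 4 down of 20, with a median of -0.039, where the damage sensor Rad23b rose (53.3 to 69.3 FPKM) and Xpa fell (11.0 to 6.25 FPKM). By contrast 13 of 19 base excision repair genes rose and 1 fell, with Ung (1.84 to 5.19 FPKM), Fen1 (9.64 to 20.2 FPKM) and Lig1 (9.29 to 18.0 FPKM) in front, of which Fen1 and Lig1 also process and join the fragments made on the lagging strand. In mismatch repair, 3 of 5 tested genes besides Exo1 rose, led by Msh6 (9.16 to 15.2 FPKM), which recognises mispaired bases. Damage checkpoint genes rose in 18 of 20 with a median of 0.55, led by Topbp1 (8.43 to 20.3 FPKM), Tipin (4.13 to 9.52 FPKM) and the kinase Chek1 (2.00 to 4.97 FPKM).

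The pattern over the 6 libraries was next used to find genes most like the 9. Among 10543 other genes, the root mean square difference from the mean centred profile of the 8 tested genes on log2(FPKM + 1) was smallest for Pafah1b3 (0.0068), followed by Gmnn, Hpse, Mis12, Ovgp1, Rffl, Egfl7 and Slc25a25 (0.020). Gmnn encodes geminin, which limits DNA replication to a single round, and Mis12 encodes a kinetochore protein. The functions of the other genes named, the closest match Pafah1b3 included, were not examined. The group difference makes up most of this likeness, as only 3 libraries stand on each side.

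Among the MMK-1 libraries, 7 of the 9 genes were higher in replicate 3 than the mean of the other libraries, against 4 in replicate 1 and 5 in replicate 2. Of 11380 genes, 69.3% were higher in replicate 3 in the same way, 38.0% in replicate 1 and 40.5% in replicate 2, so the 9 genes were near the background. Brca2 and Bard1 were the exceptions, lower in replicate 3 by a log2 ratio of -0.20 and -0.13. The Brca2 transcript had the lowest GC content of the 9 genes, 42.4%, against 44.4% to 47.4% in the others and a median of 49.7% in all genes tested. On log2(FPKM + 1) the Brca2 difference in replicate 3 was -0.13, and after a correction for GC content it was -0.026. Blm, the next lowest in GC content, was slightly higher in replicate 3 by a log2 ratio of 0.027, and Bard1 had 45.8%. The part of GC content in these differences was not tested. Without replicate 3, or without any other single library, all 8 genes tested were still called higher. Over these fits the Rad54l difference on log2(FPKM + 1) lay between 0.83 and 0.92 and that of Fanci between 0.24 and 0.31.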

How the data were processed

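The authors deposited FPKM values of 21397 genes for the 6 libraries. The submitters' processing notes name mm10, HISAT2, HTSeq, R 3.2.0 and DESeq2, without roles. Since FPKM is a whole number of fragments divided by length and depth, fragments, lengths and totals were computed from the deposited FPKM, and 100% of 20676 genes above 0 gave whole fragments within 0.1. Differences were tested with limma-trend (limma 3.58.1, R 4.3.3) on log2(FPKM + 1), with 1 added as pseudocount, on the 10551 genes averaging 1 FPKM or more, with Benjamini-Hochberg adjustment over all of them, and with limma-voom on the fragments as an alternative. This scale understates changes of low genes. The fold rule was at least 2 with p of at most 0.05. Ratios were compared with exact two-sided permutation tests.

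The 9 genes and all gene lists were chosen with earlier results of these data known. Genes named in a list were the up to 3 with the largest change in each direction at an adjusted p of at most 0.05, and not all are given singly. Genes named as not passing and Top3a were added as partners or after their values were seen. Some genes of the lists and the ratios to them are not reported here. Gene positions, overlapping genes and promoter windows come from RefSeq on GRCm38.p6, and GC content from the longest GENCODE vM21 transcript of each gene. GC content, known for 98.7% of genes tested, and length trends were removed by local regression with a span of 0.3. Scripts were tested on simulated data.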

Additional observations from a re-analysis of the deposited data

How the results depend on the processing

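Of 131 values of single genes under alternative settings, all kept direction, and the call changed only for Fanci after the gene length correction (0.10, limma adjusted p = 0.212). Brca2 was at 0.32 and 0.31 after the GC content and gene length corrections, and Fancd2 at 0.28 after the latter. The Bard1 change of 1.05 by limma-voom is on another scale. All 8 genes tested stayed past the adjusted threshold in every setting run except that correction, and leaving out each library in turn gave 8 of 8, with 4702 to 5186 genes higher and 2365 to 2947 lower among all genes. The count past 2-fold moved by construction of the scale or threshold, from 0 of 8 to 3 with a pseudocount of 0.1, 4 by limma-voom, 5 of 9 by limma-voom with a minimum mean FPKM of 0.5, 5 at a fold of 1.5 and 4 by the plain ratio. In the same order, all genes higher past the fold went from 358 to 676, 727, 902, 1502 and 739, and the other recombination and Fanconi genes (68 tested, 74 with the minimum of 0.5) from 1 to 6, 9, 9, 12 and 6. Median ratio scaling gave 230 higher genes. Genes lower past the fold went from 385 to 606 by limma-voom with the minimum of 0.5 and to 855 at a fold of 1.5, where 1 of the other recombination and Fanconi genes was lower instead of 0. Those lower past the adjusted threshold went from 4 to 8 under upper quartile scaling, 13 under median ratio scaling, and 11 under both the GC content and the gene length correction, and in the other repair lists from 9 to 15, 19, 16 and 21 in that order. Among all 10551 genes tested, those lower went from 2606 to 3291, 3828, 3605 and 3556 in the same order. The cause was not tested. Windows with E2F letters went from 2 to 6 without the first T.

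Adding 1 to each FPKM before taking ratios, which by construction weighs on low genes, turned the log2 ratios to Mki67 of Brca1 (-0.16), Rad54l (-0.069) and Exo1 (-0.19), and those to the summed proliferation genes of Brca1 (-0.020), Bard1 (-0.32), Blm (-0.11) and Exo1 (-0.047). Ratios whose groups overlapped turned as well, to Mki67 for Bard1 (-0.46) and Blm (-0.25) and to the summed genes for Brca2 (-0.29). Same-numbered replicates did not deviate together (r = 0.025, -0.040 and 0.028 over genes), so the numbers pair nothing, and a replicate block called 8 of 8 genes, with 5024 genes higher and 2543 lower in all. The alternatives by limma-voom at 0.5 and by the plain ratio were chosen after seeing the data. With 3 libraries a group, and counts from 116 fragments, small differences between these genes could have gone undetected. The size of difference that could be detected was not tested.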
